A study of Mus musculus with 2 samples.

Results

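This report describes 10 genes that encode neuropeptide precursors, out of 43346 mouse genes in each deposited gene table, in 2 RNA-seq libraries of newborn mouse midbrain. The genes were taken by symbol, with no threshold on their levels: Sst, Npy, Tac1, Cck, Penk, Nts, Gal, Cartpt, Adcyap1 and Pomc. Each library was amplified from 13 pg of RNA, labelled as the equivalent of 1 cell, out of a whole midbrain of a B6NCrl mouse on postnatal day 0. One library came from pup 1 (replicate 1) and the other from pup 3 (replicate 2), sex was not recorded, and the labels carry a single donor record. The pups thus form 1 group of 2 libraries, with no treatment, genotype or time to compare, and a difference between the pups has no replicate check.

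Neuropeptides are small signalling molecules that neurons cut out of larger precursor proteins. Convertases cleave the precursor inside secretory granules, mostly after paired basic residues, carboxypeptidases trim the ends and many peptides are amidated before release. Each precursor is typically made by a limited set of neurons, and its peptides act on G protein-coupled receptors of other cells. The midbrain holds such neurons in the tectum, the periaqueductal grey, the tegmentum and the dopaminergic nuclei, where Cck and Nts are known from subsets of dopamine neurons. In bulk RNA, fewer cells of a type and less RNA per cell cannot be told apart. With 1 library per pup, neither can be told apart from a miss in the amplified library.

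The libraries held 26037002 and 32408655 expected counts on mouse genes. A count of 0 therefore allows up to 3 counts, or 0.115 CPM in pup 1 and 0.0926 CPM in pup 3, for counting error only. The level used below is TPM, a count per transcript length scaled to a common total, and a gene is called detected at a TPM of 1 or more. All 8 pan-neuronal genes checked were detected in both pups. Of 14 genes of midbrain regions and lineages, both pups held 5, pup 1 alone held 4 and pup 3 alone 2, and 3 stayed under the limit in either. The 5 in both, of 11 detected at all, stand beside 60.8% of all genes. By the size rule given below, 7 of 12 with at least 3 counts were over 4-fold apart, beside 44.4% of all genes tested. That share differed by level: it was 36.3% at a mean of 20 to 50 TPM, where Otx2 and Nr4a2 lay. It was 74.2% at 5 to 10 TPM and 72.6% at 1 to 5 TPM, where most of the other markers over 4-fold apart lay. Among the 7, Otx2 read 40.6 TPM in pup 1 and 0.4 TPM in pup 3. Meis2 (31.8 and 102 TPM), Gata3 (29.5 and 66.0 TPM) and Pou4f1 (57.9 and 36.6 TPM) were not listed. All 8 hindbrain genes checked, of the Hox family and Egr2, had 0 counts in both libraries. Over all 43346 mouse genes, only 13480 had at least 3 counts in a library, so an unread gene was the common case.

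Of the 10 members, 7 were detected in both pups, and the other 3, Penk, Pomc and Adcyap1, in pup 1 only. Among all 12144 genes detected in at least 1 library, 60.8% were detected in both, and among 10772 protein-coding genes 63.5%. The members' share lies near that background. The summed level of the members was 907 TPM in pup 1 and 794 TPM in pup 3, a mean of 851 ± 80.0 (SD, n = 2). Their reads made up 0.0365% and 0.0350% of gene counts. The sum thus differed little between pups while its make-up did not stay the same: Sst gave 49.9% of the summed TPM in pup 1 and 32.9% in pup 3, and Npy gave 14.8% and 25.1%.

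**Figure D1:**
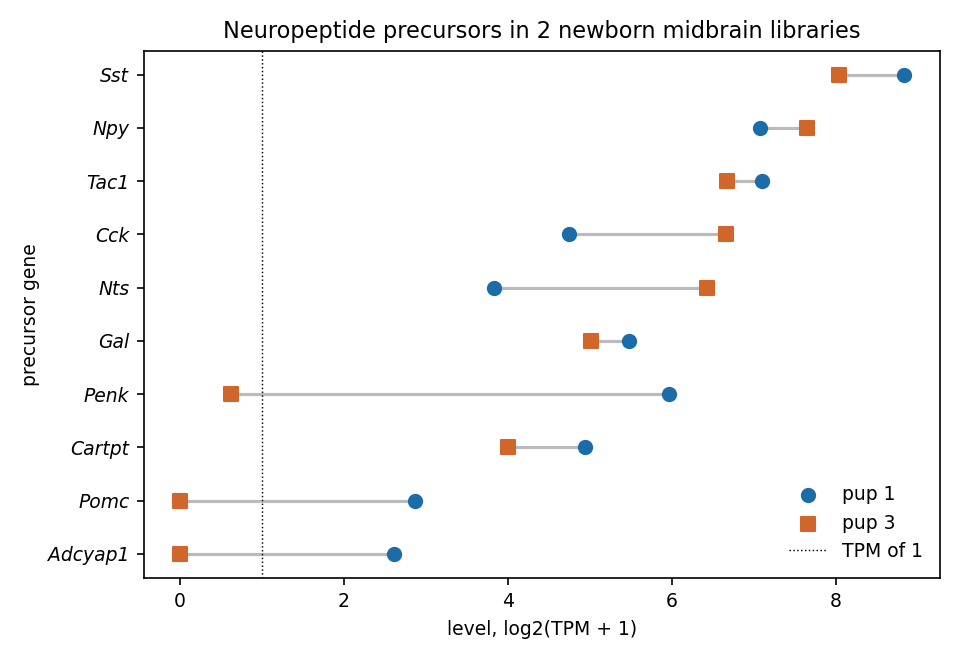
Level of each precursor gene in each library, as log2(TPM + 1) on the horizontal axis, with circles for pup 1 and squares for pup 3 and a dotted line at a TPM of 1. Sst is highest in either pup, and Penk, Pomc and Adcyap1 fall left of the line in pup 3 alone.

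Somatostatin inhibits hormone and transmitter release and marks a class of inhibitory neurons. Its precursor gene Sst (ENSMUSG00000004366.3, chromosome 16, 23889573 to 23890958 on GRCm38) had 3685 counts and 452 TPM in pup 1, and 2977 counts and 261 TPM in pup 3. It was the highest of the 10 genes in either library, at 357 ± 135 TPM (SD, n = 2), and ranked 288 of 9198 detected protein-coding genes in pup 1 and 607 of 8410 in pup 3. The RNA ends its coding part with the 14 codons of somatostatin-14, the peptide that acts on the receptors, shown here because Sst carries the largest share of the precursor RNA. It lies within the last coding exon at chr16:23889732-23889773, minus strand, with the sequence from GENCODE M21 transcripts.
Sst last 14 codons: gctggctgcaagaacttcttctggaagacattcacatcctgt
Of 7 forebrain and interneuron genes checked beside it, 5, among them Lhx6, had 0 counts in both libraries, while Dlx1 read 10.6 and 7.40 TPM and Dlx5 0 and 32.4 TPM. Most mouse genes were unread as well, since 13480 of 43346 had at least 3 counts in a library. The part of the forebrain and interneuron genes in the level of Sst was not tested.

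Neuropeptide Y, a peptide with an amidated tyrosine at its end that promotes feeding and dampens excitation, comes from Npy (ENSMUSG00000029819.6, chromosome 6, 49822710 to 49829507). Npy had 1021 counts and 134 TPM in pup 1, and 2124 counts and 200 TPM in pup 3, or 167 ± 46.3 TPM (SD, n = 2). It stood next to Tac1 in pup 1 and below Sst alone in pup 3. Codons 29 to 64 of its 97 encode the mature peptide. They are given because Npy is the member that was highest next to Sst by its mean. They are joined from exons between chr6:49823682-49827492, plus strand, in GENCODE M21.
Npy codons 29 to 64: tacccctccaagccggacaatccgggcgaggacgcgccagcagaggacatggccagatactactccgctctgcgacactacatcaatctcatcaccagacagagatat
Sst stood above Npy in both pups, by 3.37 times in pup 1 and 1.31 times in pup 3.

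Tac1 (ENSMUSG00000061762.8, chromosome 6, 7554879 to 7565834) encodes the tachykinins substance P and neurokinin A, which excite their target neurons. It had 2121 counts and 136 TPM in pup 1, and 2092 counts and 101 TPM in pup 3. At 118 ± 24.9 TPM (SD, n = 2) it was the member whose TPM differed least between the pups, by 1.35 times. By counts scaled by the total gene counts of each library, Gal differed less, by 1.23 times against 1.26 for Tac1. The ranges of Npy and Tac1 over the pups overlapped. In pup 1 their order was not resolved, with deposited TPM intervals of 122 to 138 for Npy and 125 to 139 for Tac1.

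Tac1 is also a gene whose splicing decides which peptides can be made, and 3 of its 5 listed transcripts held all of its reads. The full form, beta-preprotachykinin (ENSMUST00000185187), has 7 exons. The gamma form (ENSMUST00000184986) lacks exon 4, and the alpha form (ENSMUST00000090679) lacks exon 6, which encodes neurokinin A. Exons 4 and 6 are shown because they are the coding sequence that tells these forms apart. Both are wholly coding exons on the plus strand, at chr6:7557216-7557260 and chr6:7559099-7559152, and their sequences are those of the full GENCODE M21 transcript, whose length of 1230 bases equals that in the deposited table.
Tac1 exon 4: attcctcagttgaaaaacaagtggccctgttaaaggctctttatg
Tac1 exon 6: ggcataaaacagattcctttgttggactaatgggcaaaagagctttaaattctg

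The full form led in both pups, with 63.2% of the gene's TPM in pup 1 and 48.2% in pup 3. The gamma form held 28.0% and 30.4%, and so kept nearly the same share. The alpha form held 8.83% and 21.4%. In levels, the alpha form stood at 12.0 TPM in pup 1, with a deposited interval from 0.397 to 19.9, and at 21.5 TPM in pup 3, with an interval from 15.0 to 27.4. These intervals overlap, so the reads do not separate the pups for the form without exon 6. For the full form they did not overlap: 74.5 to 92.1 TPM in pup 1 and 42.0 to 52.8 TPM in pup 3. By expected counts the full form held 74.6% and 59.7% of the reads. The forms with exon 6, full and gamma, were thus the larger part of Tac1 RNA in either library.

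**Figure D2:**
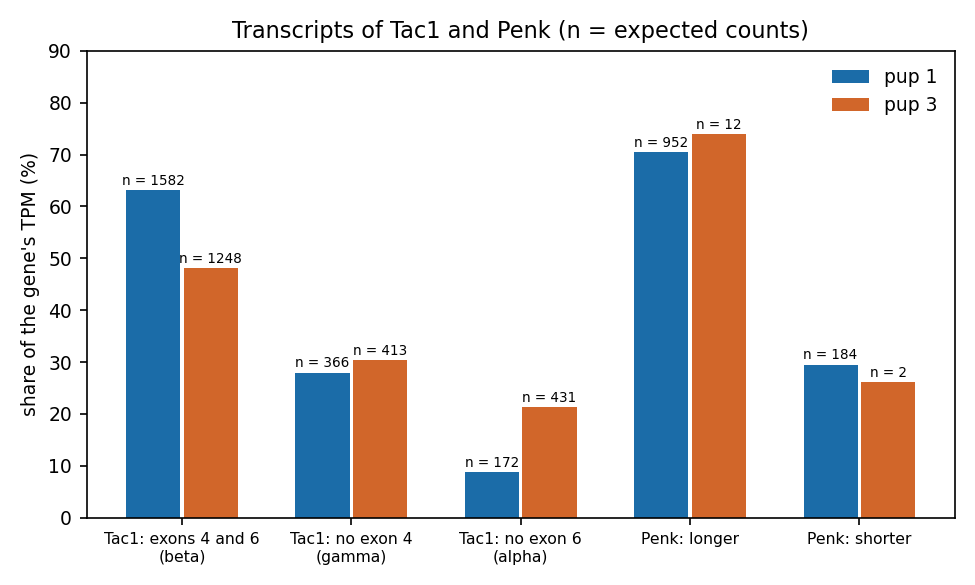
Share of the gene's TPM, in percent, on each transcript of Tac1 and Penk in pup 1 and pup 3, with the expected counts printed over the bars. The full Tac1 form is the tallest of the Tac1 forms in both pups at 63.2% and 48.2%, and the Penk bars of pup 3 rest on 14.4 counts in all.

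Cholecystokinin, a peptide of gut and brain that often accompanies glutamate or dopamine, is encoded by Cck (ENSMUSG00000032532.6, chromosome 9, 121489824 to 121495694). Cck had 247 counts and 25.9 TPM in pup 1, and 1338 counts and 100.2 TPM in pup 3. Its count ratio, scaled by the total gene counts of each library, was 4.35 with an exact (Clopper-Pearson) 95% interval from 3.80 to 5.01. The interval holds 4, so Cck was not listed as differing over 4-fold. In pup 3 Cck stood level with Tac1, whose deposited TPM interval of 93.7 to 103.4 overlaps that of Cck, 92.8 to 103.3.

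Neurotensin modulates dopamine signalling, and its gene Nts (ENSMUSG00000019890.3, chromosome 10, 102481756 to 102490486) was the member that was over 4-fold higher in pup 3. It had 231 counts and 13.2 TPM in pup 1, and 2090 counts and 85.2 TPM in pup 3, a count ratio of 7.27 (exact 95% interval 6.34 to 8.36). Cck and Nts were therefore both higher in pup 3. Of the dopaminergic genes checked beside them, Th read 46.9 and 38.5 TPM and Nr4a2 3.08 and 57.0 TPM, while Pitx3 read 8.14 and 0 TPM and Slc6a3 2.38 and 0 TPM. Pitx3 and Slc6a3 lie below the 6 genes of the midbrain list that were to be named. These markers went in different directions, and their part in the levels of Cck and Nts was not tested.

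Penk (ENSMUSG00000045573.9, chromosome 4, 4133531 to 4138819, minus strand) encodes proenkephalin, the source of the opioid peptides Met- and Leu-enkephalin. It had 1136 counts and 61.4 TPM in pup 1 but 14.4 counts and 0.54 TPM in pup 3. The count ratio of pup 1 over pup 3 was 101 (exact 95% interval 59.9 to 185), the widest gap among members with reads in both libraries. Of 1572 genes at 50 to 100 TPM in pup 1, 12.8% read under 1 TPM in pup 3.

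The precursor is cut into several copies of the same peptide, and these copies are shown because the annotated transcripts of Penk do not hold the same number of them. Met-enkephalin is encoded by 5 codons that recur 6 times in the 268 codons of the longer transcript, 4 of them between paired basic residues. Capitals mark the repeated 5 codons, with 2 codons on each side in lower case. The sequences are from GENCODE M21 and lie in the last coding exon, between chr4:4133842-4134354 on the minus strand. Copies 1 and 2 overlap in the codons between them.
Penk copy 1: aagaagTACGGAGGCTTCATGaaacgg
Penk copy 2: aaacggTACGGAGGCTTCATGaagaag
Penk copy 3: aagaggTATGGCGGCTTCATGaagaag
Penk copy 4: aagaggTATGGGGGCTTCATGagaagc
Penk copy 5: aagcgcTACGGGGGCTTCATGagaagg
Penk copy 6: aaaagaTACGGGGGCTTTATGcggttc
The longer transcript (ENSMUST00000070375, 1449 bases) held 70.5% of Penk TPM in pup 1. The shorter one (ENSMUST00000133567, 721 bases) held 29.5% and, as annotated, ends after the first 3 copies. In pup 3 the shares were 73.9% and 26.1%, on 12.4 and 2.01 counts.

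A gene on the opposite strand, A830012C17Rik, overlaps the start of Penk and had 0 counts in pup 1 and 169 in pup 3, the reverse of Penk. The use of strand in counting is not given in the sources used here, so reads of the overlap cannot be assigned with certainty. With its counts added to those of Penk, a check chosen after seeing the data, the ratio of pup 1 over pup 3 was 7.73 (exact 95% interval 6.60 to 9.08).

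Galanin, an inhibitory peptide, comes from Gal (ENSMUSG00000024907.6, chromosome 19, 3409915 to 3414544), which had 434 counts and 43.4 TPM in pup 1, and 438 counts and 31.4 TPM in pup 3. It stood at 37.4 ± 8.53 TPM (SD, n = 2). Cartpt (ENSMUSG00000021647.6, chromosome 13, 99898489 to 99901091) encodes the CART peptides, which act on feeding and reward. It had 375 counts and 29.7 TPM in pup 1, and 265 counts and 15.0 TPM in pup 3, or 22.4 ± 10.4 TPM (SD, n = 2). Both were somewhat higher in pup 1, by 1.38 and 1.98 times in TPM, and neither was listed as over 4-fold apart.

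Pomc and Adcyap1 were the lowest members and were read in pup 1 alone. Pomc (ENSMUSG00000020660.5, chromosome 12, 3954951 to 3960642) encodes the precursor of beta-endorphin and the melanocortins, best known from the pituitary and the arcuate hypothalamus. It had 93 counts and 6.28 TPM in pup 1 and 0 counts in pup 3, or 38.6-fold higher in pup 1 when pup 3 is set to 3 counts. That floor leaves out the counting error of pup 1, and the exact 95% interval of the ratio starts at 30.8. Amplified reads are not independent molecules, so neither value bounds the difference in RNA between the pups. All 9 pituitary genes checked, among them Gh, Prl and Tbx19, had 0 counts in both libraries. Of 13 hypothalamic genes, Avp, Pmch and Trh were detected in both pups, and 9, among them Agrp, Hcrt, Otp and Rax, had 0 counts in both. Beside these zeros, 13480 of all 43346 mouse genes had at least 3 counts in a library. The summed level of the hypothalamic list was 66.1 TPM in pup 1 and 149 TPM in pup 3, and Pmch, whose reads are uncertain because it overlaps Parpbp on the opposite strand, gave 42.9 TPM of the former. The part of hypothalamic RNA in the level of Pomc was not tested. Adcyap1 (ENSMUSG00000024256.6, chromosome 17, 93199017 to 93206537) encodes PACAP, a peptide that raises cyclic AMP. It had 166 counts and 5.12 TPM in pup 1 and 0 counts in pup 3. By the same floor it was 68.9-fold higher in pup 1, with an exact 95% interval that starts at 55.4, under the same limit. Both genes stood low in pup 1 as well, above 14.6% and 12.0% of detected protein-coding genes. Among 1009 genes that read 5 to 10 TPM in pup 1, pup 3 held fewer than 3 counts for 36.8%.

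By the size rule used above, in which the whole exact 95% interval of the scaled count ratio must lie beyond 4-fold, 4 of the 10 members differed between the libraries. Penk, Pomc and Adcyap1 were higher in pup 1, and Nts was higher in pup 3. Of 13480 genes with at least 3 counts in a library, 44.4% differed by this rule, 25.0% higher in pup 1 and 19.3% higher in pup 3. The members' count is thus close to that of genes at large. The median log2 ratio of TPM + 1, pup 3 over pup 1, was -0.62 over the members and -0.08 over those genes, and the median absolute log2 ratio was 1.43 and 1.32. The rule compares the reads of 2 libraries and not conditions. Other scalings moved all log2 ratios by -0.19 (TMM), -0.20 (DESeq2 size factors) and -0.11 (spike-in totals), and the direction of every member held under each of them.

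**Figure D3:**
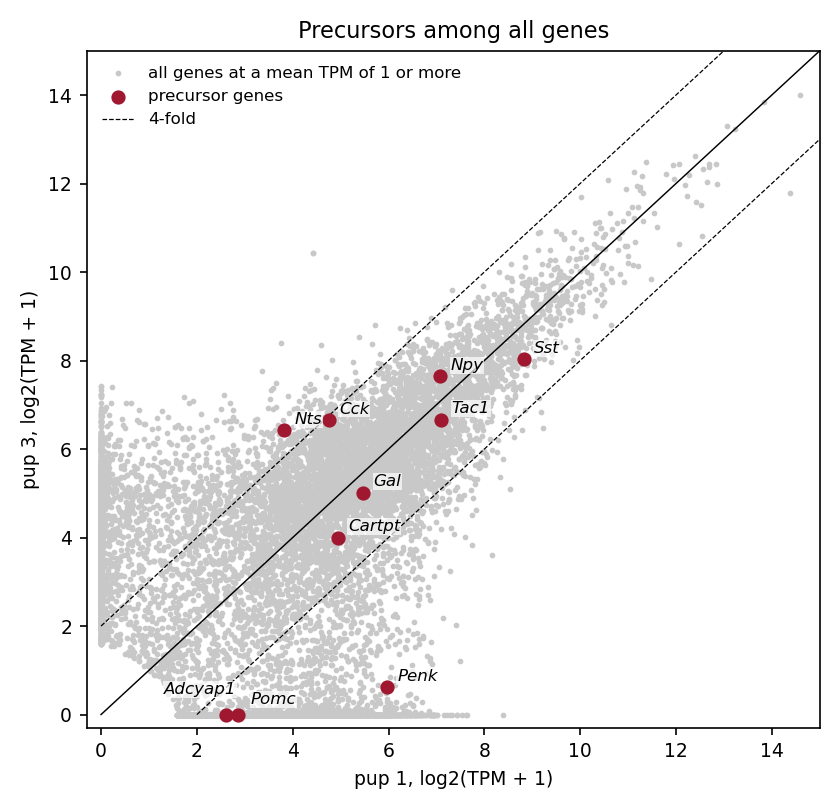
Level in pup 3 against pup 1, both as log2(TPM + 1), for all genes whose mean TPM reached 1 (grey) and the precursor genes (dark red), with the line of equal level and dashed lines 2 log2 units away. Sst, Npy, Tac1, Cck, Gal and Cartpt lie between the dashed lines, while Penk, Pomc and Adcyap1 lie along the lower edge and Nts above the upper line.

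The share of genes over 4-fold apart was smaller at high levels. It was 72.6% of 1849 genes at a mean TPM of 1 to 5, where Pomc and Adcyap1 lay, 74.2% of 1552 genes at 5 to 10, 66.3% of 2271 genes at 10 to 20 and 36.3% of 2812 genes at 20 to 50, where Nts, Gal, Penk and Cartpt lay. It was 16.4% of 1552 genes at 50 to 100, the class of Cck, 5.49% of 1129 genes at 100 to 300, the class of Npy and Tac1, and 0.929% of 538 genes at 300 or more, the class of Sst. A miss in a library itself lowers the mean by which genes were classed. None of the members at 100 TPM or more, Sst, Npy and Tac1, was over 4-fold apart, as was the case for most genes at these levels.

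**Figure D4:**
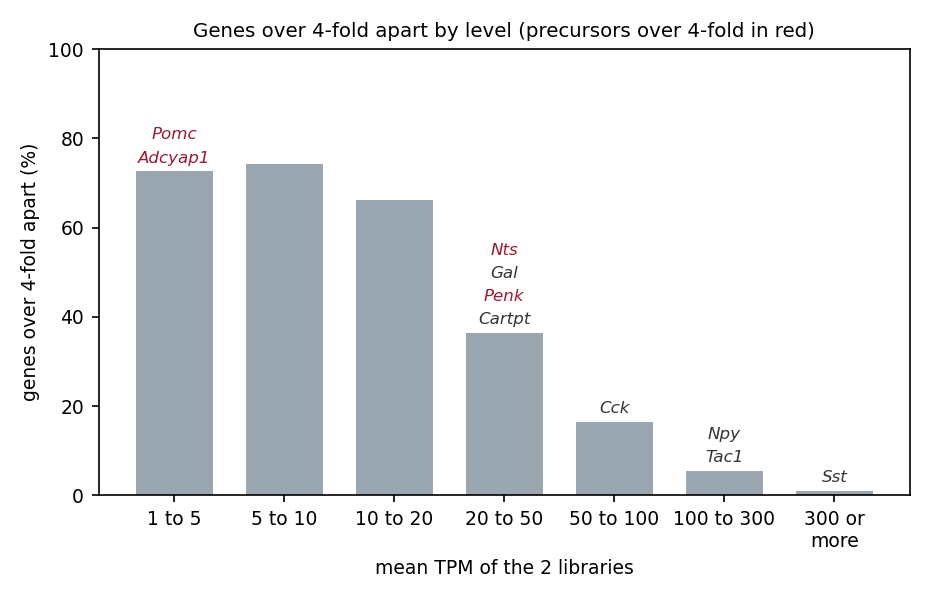
Percent of genes over 4-fold apart between the libraries (bars) in 7 classes of mean TPM, with each precursor written above the bar of its class, in red where it was itself over 4-fold apart. The bar is at 72.6% in the lowest class and at 0.929% in the highest, and the precursors in red are in the classes at 1 to 5 and 20 to 50.

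The order of the members' levels was partly shared. Of 45 pairs of members, 35 had the same order in both pups, a count that was not made for other sets of genes. By mean TPM the order was Sst, Npy, Tac1, Cck, Nts, Gal, Penk, Cartpt, Pomc and Adcyap1. Between neighbours in this order, the 2 libraries' ranges lay apart for Sst over Npy, for Tac1 over Cck and for Cartpt over Pomc, the gap of Tac1 over Cck being smaller than their deposited intervals in pup 3. All other neighbours overlapped. The members also share short transcripts: from 566 bases for Npy to 2088 for Adcyap1, all 10 were shorter than 2449 bases, the median of detected protein-coding genes. Tac1 and Npy lie on chromosome 6 and the other members each on a chromosome of their own.

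The other peptide precursors checked were at 0 in most cases. Of 52 genes with a row, 6 reached the limit in both pups, 1 did so in pup 1 and 1 in pup 3, and 42 had 0 counts in both libraries. At least 3 counts in a library were held by 9 of the 52, beside 13480 of all 43346 mouse genes. Avp, the vasopressin gene, read 20.7 and 79.9 TPM. Pmch, of melanin-concentrating hormone, read 42.9 and 40.9 TPM, and it overlaps Parpbp on the opposite strand, which had 937 and 1.12 counts, so its reads are uncertain. The natriuretic peptide gene Nppa stood at 34.7 ± 4.90 TPM and Grp, of gastrin-releasing peptide, at 26.5 ± 7.39 TPM (SD, n = 2). Both were close between the pups. Nmb, of neuromedin B, read 37.4 and 0 TPM and shares its strand and locus with Sec11a. Trh, of thyrotropin-releasing hormone, read 2.53 and 28.3 TPM. Pnoc (28.7 and 1.43 TPM) and Edn3 (0 and 17.3 TPM), named after their values were seen, complete the 8 genes. Of these, Nmb and Pnoc were over 4-fold higher in pup 1, and Trh and Edn3 in pup 3. That is 4 of the 9 with at least 3 counts, beside 44.4% of all genes tested, and the 6 detected in both pups of 8 detected at all stand beside 60.8%.

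Receptors for the members' peptides, and others of the same families, were sparse. Of 31 receptor genes with a row, both pups held 2, pup 1 alone held 6 and pup 3 alone 4, while 19 reached the limit in neither and 16 of these had 0 counts in both. At least 3 counts in a library were held by 15 of the 31, beside 13480 of all 43346 mouse genes. The 2 detected in both, of 12 detected at all, stand beside 60.8% of all genes. Oprl1 was highest at 117 and 133 TPM, but its ligand nociceptin comes from Pnoc, which is not a member. Adcyap1r1, the PACAP receptor, read 13.3 and 58.5 TPM, so that it was higher in pup 3, where Adcyap1 had 0 counts. The cholecystokinin receptors Cckbr (18.7 and 0 TPM) and Cckar (7.35 and 0 TPM) were read in pup 1, where Cck was lower. Sort1, a sorting receptor that binds neurotensin, read 0.12 and 13.2 TPM, and so was higher in pup 3, as was Nts. Sstr4, a somatostatin receptor, read 8.84 and 0 TPM, and so was read in pup 1, where Sst was higher. Receptors thus went both with and against the precursors of their peptides, and a relation was not tested. The 4 neuropeptide Y receptor genes checked, Npy1r, Npy2r, Npy4r and Npy5r, had 0 counts in both libraries, as did Sstr1 and Sstr2. By the size rule 10 of 15 receptor genes with at least 3 counts were over 4-fold apart, 6 higher in pup 1 and 4 in pup 3, beside 44.4% of all genes tested. All 10 had under 20 TPM in either library and a mean under 10 TPM, where the share over all genes was 72.6% at 1 to 5 TPM and 74.2% at 5 to 10.

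Most of the genes checked for the cutting and finishing of precursors, not all of them enzymes, were read in both libraries. Of 10 genes, 8 were detected in both pups and 1 was over 4-fold apart, Cpd, named after its values were seen, which read 14.9 and 0 TPM. Over all genes, 60.8% of those detected at all were detected in both and 44.4% of those tested were over 4-fold apart. Cpe, carboxypeptidase E, read 768 and 343 TPM, and Scg5, the chaperone of convertase 2, 383 and 451 TPM. Ctsl, a protease that can also process precursors, stood at 144 ± 15.0 TPM, Pcsk1n at 57.9 ± 15.6 TPM, the glutaminyl cyclase Qpct at 32.8 ± 7.33 TPM and the convertase gene Pcsk2 at 28.9 ± 5.68 TPM (SD, n = 2). Pcsk1, of the other main neuroendocrine convertase, had 0 counts in both libraries. The share of all genes over 4-fold apart differed by level, so 44.4% is not the share at these genes' levels. It was 0.929% at a mean of 300 TPM or more (Cpe, Scg5), 5.49% at 100 to 300 (Ctsl) and 16.4% at 50 to 100 (Pcsk1n). At 20 to 50 (Qpct, Pcsk2) it was 36.3%. It was 66.3% at 10 to 20 (Pam), 74.2% at 5 to 10 (Cpd) and 72.6% at 1 to 5 (Furin).

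**Figure D5:**
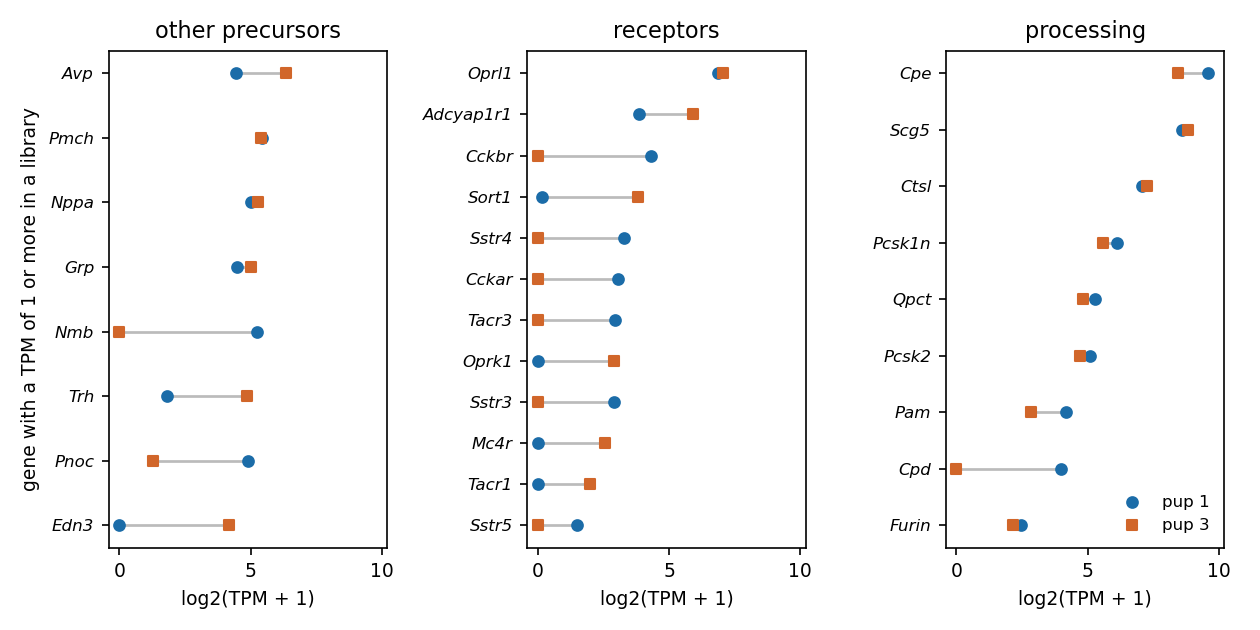
Levels as log2(TPM + 1) in pup 1 (circles) and pup 3 (squares) of other precursors, receptors and processing genes that reached a TPM of 1 in a library. Most receptors have a symbol at 0 for one of the pups, while among the processing genes Cpd alone does.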

How the data were processed

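Per the file headers, the authors aligned reads to mm10 and used GENCODE M4, and deposited gene and transcript tables per library. Per the labels' protocols RNA over 200 bases was extracted with mirVana and amplified by a SMART-type protocol with spike-ins. The sources used here name no aligner, counting program or strand setting. Expected counts, as deposited, split ambiguous reads between genes and were rounded for ratios. The deposited TPM and FPKM are scaled for length and depth. The deposited bounds of the TPM interval were read as a signal on the TPM scale. The deposited percent gives each transcript's share of its gene.

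Genes were matched to symbols by identifier (42462 matched), with coordinates and transcript sequences from GENCODE M21 on GRCm38, the same assembly as mm10. All 10 members, and up to 6 members of each other list by mean TPM, were to be named. The members and lists were chosen with earlier results of these data known. Ratios used exact 95% intervals over all 13480 genes with at least 3 counts in a library, without p-values. Intervals cover counting error only, since amplified reads are not independent molecules. Kiss1 and Galr3 had no row under their symbols, and 1 forebrain marker is not reported here. Alternatives covered detection limits, scalings, fold limits, pseudocounts and leaving out a library. Intervals were computed with scipy 1.17.1 and numpy 2.4.6 in Python 3.11.15, tables with pandas 2.3.3 and figures with matplotlib 3.10.9. Scaling factors came from edgeR 4.0.16 and DESeq2 1.42.0 under R 4.3.3.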

Additional observations from a re-analysis of the deposited data

How the results depend on the processing

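The count of members detected in both libraries was 7 at a TPM of 1 and was 7 or 8 at a TPM of 0.1 or 10, at 10 counts or with posterior mean TPM. Penk is the gene that enters at 0.1 TPM and at 10 counts. At a TPM of 1, 60.8% of all genes detected in a library were detected in both, and the shares at the other limits are not given here. With a single library, 10 members were detected in pup 1 and 7 in pup 3. Of 10772 protein-coding genes detected in at least 1 library, 9198 were detected in pup 1 and 8410 in pup 3. The count of members over 4-fold apart was 4 under each of 3 other scalings and with posterior mean counts, 5 at a 2-fold limit, where Cck enters, and 3 at an 8-fold limit, where Nts leaves. Over all 13480 genes tested, the rule listed 5982, from 5963 to 5969 under the other scalings, 8064 at 2-fold and 4914 at 8-fold. The summed level of the members was 851 TPM, 826 with posterior mean TPM, and 794 and 907 in the single libraries. The median log2 ratio of the members was -0.63 with a pseudocount of 0.1 and -0.50 with 10. Tac1 and Penk kept their leading transcript in both pups by TPM and by counts. No paired analysis was possible because both libraries belong to 1 group. With 2 libraries a mean always lies within its SD of either library, so leaving out a library says nothing about the stability of single levels.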

Other observations

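Peptidases that break down released neuropeptides were present in part. Of 9 genes, 5 were detected in both pups, Ece1 in pup 1 only and Mme in pup 3 only. The 5 in both, of 7 detected at all, stand beside 60.8% of all genes. By the size rule 5 of the 8 with at least 3 counts were over 4-fold apart, beside 44.4% of all genes tested. By level, that share was 36.3% at a mean of 20 to 50 TPM (Prep, Mme), 66.3% at 10 to 20 (Ece1) and 74.2% at 5 to 10 (Thop1). Ece1 and Lnpep, the latter at 0.51 and 0 TPM and named after its values were seen, were higher in pup 1, and Prep, Mme and Thop1 in pup 3. Nln, neurolysin, read 26.6 and 86.1 TPM and Prep, prolyl endopeptidase, 12.7 and 65.0 TPM. Mme, neprilysin, which cleaves enkephalins and substance P, read 0 and 41.0 TPM, Ece1 21.9 and 0.07 TPM, Thop1 2.11 and 16.0 TPM, and Ece2 39.5 and 11.1 TPM.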
